A study of Mus musculus with 12 samples.

Results

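The genes described here are 40 mouse cyclins, cell cycle kinases, checkpoint genes and replication licensing genes. They were chosen by symbol as the entries of a table of RefSeq transcripts whose identifiers map to the 40 listed symbols. The table keeps 19708 entries, of which 12704 passed a filter on low levels, and all 40 genes were found and passed it. By the step of the cycle they serve, 22 were assigned to the passage from G1 into S phase (G1-S) and 18 to G2 and mitosis (G2-M). The series measured the 3′ ends of polyadenylated RNA in mouse embryonic stem cells (ESCs) and in embryoid bodies (EBs), the aggregates of differentiating cells that ESCs form in suspension, both of the C57BL/6 strain. Each was wild type (WT) or knocked out for Mettl3 (Mettl3-KO), which encodes the methyltransferase that places N6-methyladenosine on messenger RNA. RNA was taken 0, 4 or 8 h after actinomycin, a drug that stops transcription, so that the level left at a later time reads how much of the RNA persisted. The 12 groups (genotype, cell type and time) hold 1 library each. ESCs were kept without serum in N2B27 medium with LIF and the inhibitors CHIR99021 and PD0325901, and EBs were grown in medium with serum for 8 to 21 days, a range the labels do not narrow down for these libraries. The deleted stretch of Mettl3 and the number of knockout lines are not in the labels, nor is it stated whether the 3 times of a condition come from 1 culture, so p-values below measure only the scatter of these libraries around a line over time.

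The cell cycle is driven by cyclins, which are made and destroyed in each round, and by the cyclin-dependent kinases (CDKs) that they switch on. D and E cyclins with Cdk4, Cdk6 and Cdk2 inactivate the retinoblastoma protein Rb1 and free E2F factors, which transcribe the genes of S phase. Before S phase, Cdc6 and Cdt1 load the MCM helicase onto origins, a step called licensing that geminin (Gmnn) blocks until the next round. A and B cyclins with Cdk1, together with Polo-like and Aurora kinases, then drive mitosis under the watch of the spindle checkpoint. Mouse ESCs are known for a short G1 phase and for high levels of many of these genes for much of the cycle.

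The 12 columns of deposited levels sum to 3673848 (WT EBs at 8 h) to 11086748 (KO ESCs at 8 h), and the smallest steps between low values correspond to 208874 to 666805 reads per library. All levels below are in these deposited units, in which 1 read was worth 10.6 to 32.7. The median of the 40 genes rested on 8.42 reads in WT EBs at 8 h and on 63.2 in WT ESCs at 0 h. Mettl3 itself was at 251, 64.8 and 113 at 0, 4 and 8 h in WT ESCs, 98.1, 65.4 and 41.8 in KO ESCs, 175, 86.0 and 77.4 in WT EBs and 16.8, 40.7 and 83.9 in KO EBs. It was lower in KO than in WT at 0 h in both cell types, but KO EBs at 8 h were not below WT EBs at 8 h, and 3′ reads outside a deleted part would still be counted. A set of 1420 olfactory, vomeronasal, keratin-associated and similar genes that these cells should not use was above 0 for 6.69 to 9.51% of its genes in the ESC libraries and for 26.7 to 36.2% in the EB libraries. None of the 40 genes was at 0 in any library. In WT EBs at 8 h, 8 of the 40 (Cdk6, Ccne2, Cdc25a, Rb1, Cdc6, Gmnn, Ccna2 and Plk1) lay at or below the 95th percentile of that silent set, in KO EBs at 8 h Ccne2 did, and in the other 10 libraries none did. Of the cell type markers, the summed level of 6 pluripotency genes (Pou5f1, Nanog, Sox2, Zfp42, Esrrb and Tfcp2l1) ran from 30986 to 54748 in ESCs and from 5945 to 21933 in EBs. The 9 endoderm markers summed to 4423 to 7856 over the WT EB libraries and 301 to 454 over the KO EB libraries, beside 334 to 495 over the ESC libraries, and of the defining ones Sox17 was at 0 in 4 ESC libraries and 1 KO EB library. The 7 fibroblast and feeder markers summed to 1679 to 4246 in ESCs and 1905 to 4499.9 in EBs, with Col3a1 at 0 in 5 of the 6 ESC libraries.

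The promoters of the genes were read first, because G1-S and G2-M genes are known to carry different elements. G2-M genes are typically held down early in the cycle through a cell cycle homology region (CHR) and driven through CCAAT boxes, whereas E2F sites mark many G1-S genes. In RefSeq promoter windows of 300 bases on GRCm38.p6 (250 before the start and 50 after), 30 of the 40 genes matched, with 32 windows. Wee1, Ccnd1, Mcm4, Ccnd2, Gmnn, Rb1, Ccne2, Cdc25c, Aurkb and Ccna2 were not matched. The motifs were searched on both strands as plain letters: CHR as TTTGAA or as TTCGAA, the CCAAT box as CCAAT, and 4 E2F forms, of which one was TTCCCGC, another TTGGCGC, the third TTCGCGC and the last TTGCCGC. The reverse of the CCAAT box is ATTGG, which shares letters with the second E2F form, so both can be read in the same bases. A CHR together with a CCAAT box was found in 12 of 14 G2-M windows (85.7%) and in 2 of 18 G1-S windows (11.1%), beside 7.52% of all 32851 promoter windows. An E2F match was found in 10 of 18 G1-S windows (55.6%) and in 3 of 14 G2-M windows (21.4%), beside 9.57% of all windows. A CCAAT box alone was in 10 of the G1-S and 13 of the G2-M windows, beside 37.4% of all. These are matches of letters, and nothing in the series measured binding.

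To show the contrast, 120 bases are printed 5′ to 3′ for 4 G2-M genes and then for 2 G1-S genes, with every match of the 3 motif groups in capitals. They are the bases before the start used for the promoter window. Cdk1 lies at chr10:69352913-69353032 on the minus strand, Ccnf at chr17:24251410-24251529 on the minus strand, Cdc20 at chr4:118437344-118437463 on the minus strand and Top2a at chr11:99024190-99024309 on the minus strand. Mcm6 lies at chr1:128359706-128359825 on the minus strand and Cdc25a at chr9:109875459-109875578 on the plus strand. The RefSeq bounds of the gene begin at 109875518 for Cdc25a and end at 99024199 for Top2a, so the stretches of both reach into the gene. The first 4 stretches each hold at least 1 CHR match together with at least 1 CCAAT box in either direction. The last 2 hold E2F matches and a CCAAT box but no CHR match. Among the matched G2-M genes, only these 4 hold both a CHR and a CCAAT box within the 120 bases. Aurka, Bub1, Bub1b, Ccnb1, Ccnb2, Cdc25b, Mad2l1, Plk1 and Ttk hold no CHR match there, and Mki67 holds no CCAAT box. The G1-S gene Mcm2 does hold a CHR match there. The percentages above come from the longer windows, so these stretches are chosen examples.
Cdk1: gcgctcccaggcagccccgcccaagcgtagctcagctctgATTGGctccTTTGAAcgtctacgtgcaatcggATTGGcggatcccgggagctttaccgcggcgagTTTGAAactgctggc
Ccnf: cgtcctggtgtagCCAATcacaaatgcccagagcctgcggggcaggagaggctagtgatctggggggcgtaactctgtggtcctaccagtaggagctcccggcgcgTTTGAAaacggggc
Cdc20: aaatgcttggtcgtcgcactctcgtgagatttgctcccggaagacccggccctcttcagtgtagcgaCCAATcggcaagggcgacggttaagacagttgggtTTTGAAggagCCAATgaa
Top2a: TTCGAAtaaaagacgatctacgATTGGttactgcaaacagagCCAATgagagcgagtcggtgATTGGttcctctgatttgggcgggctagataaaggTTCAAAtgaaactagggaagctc
Mcm6: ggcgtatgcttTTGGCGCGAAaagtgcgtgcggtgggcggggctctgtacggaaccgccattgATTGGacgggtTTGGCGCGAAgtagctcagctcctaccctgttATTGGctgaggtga
Cdc25a: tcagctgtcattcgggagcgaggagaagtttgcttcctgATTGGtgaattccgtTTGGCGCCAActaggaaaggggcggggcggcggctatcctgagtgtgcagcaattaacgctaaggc

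After actinomycin, most of the 40 genes stood lower at 8 h than at 0 h, and the G2-M genes had the lower median share left. Only 9, 11, 1 and 2 of the 40 were above their 0 h level at 8 h in WT ESCs, KO ESCs, WT EBs and KO EBs. The median share of the 0 h level left at 8 h was 75.1% in WT ESCs, 74.1% in KO ESCs, 20.6% in WT EBs and 55.1% in KO EBs. For the G1-S genes alone these medians were 79.0%, 87.9%, 25.3% and 65.7%, and for the G2-M genes 47.4%, 56.1%, 19.1% and 46.7%, so the G2-M median was the lower one in each of the 4 conditions. Over entries whose level averaged at least 20 ppm of the mean column total, the median shares were 74.6%, 97.5%, 35.0% and 78.9%. In these bulk samples, fewer cells of a type and less RNA per cell cannot be told apart. The share is read on the scale the authors deposited, on which the column total of WT EBs was 8311484 at 0 h and 3673848 at 8 h, and the part of that difference in the low WT EB shares was not tested.

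A straight line over time was fitted to log2 levels in each condition with limma over all 12704 entries, and a gene was called where the Benjamini-Hochberg adjusted p was under 0.05. Averaged over the 4 conditions, the slope was called in 25 of the 40 genes, all downward. Among all entries 21.4% were called downward, and of the 6513 entries of at least 20 ppm, 2271 were. The median slope of the 40 was -0.12 log2 units per hour, against -0.05 over all entries and -0.07 over those of at least 20 ppm. The median was -0.10 for the G1-S genes, of which 14 of 22 were called, and -0.16 for the G2-M genes, of which 11 of 18 were called. When libraries were rescaled to equal column totals, by median ratios or by ribosomal protein genes, 15, 14 and 21 of the 40 were called. The median slope of all entries was then -0.010, 0.005 and -0.033 log2 units per hour. Of the 25 genes, 14 were called under each of these 3 scalings. Those 14 were Ccne1, Cdc25a, Cdc6, Cdt1, Gmnn and Mcm3 of the G1-S genes and Ccna2, Ccnb1, Ccnf, Cdk1, Plk1, Aurka, Bub1b and Top2a of the G2-M genes. Without both EB libraries of 8 h, 13 were called, and without KO EBs at 8 h alone, 16.

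**Figure D1:**
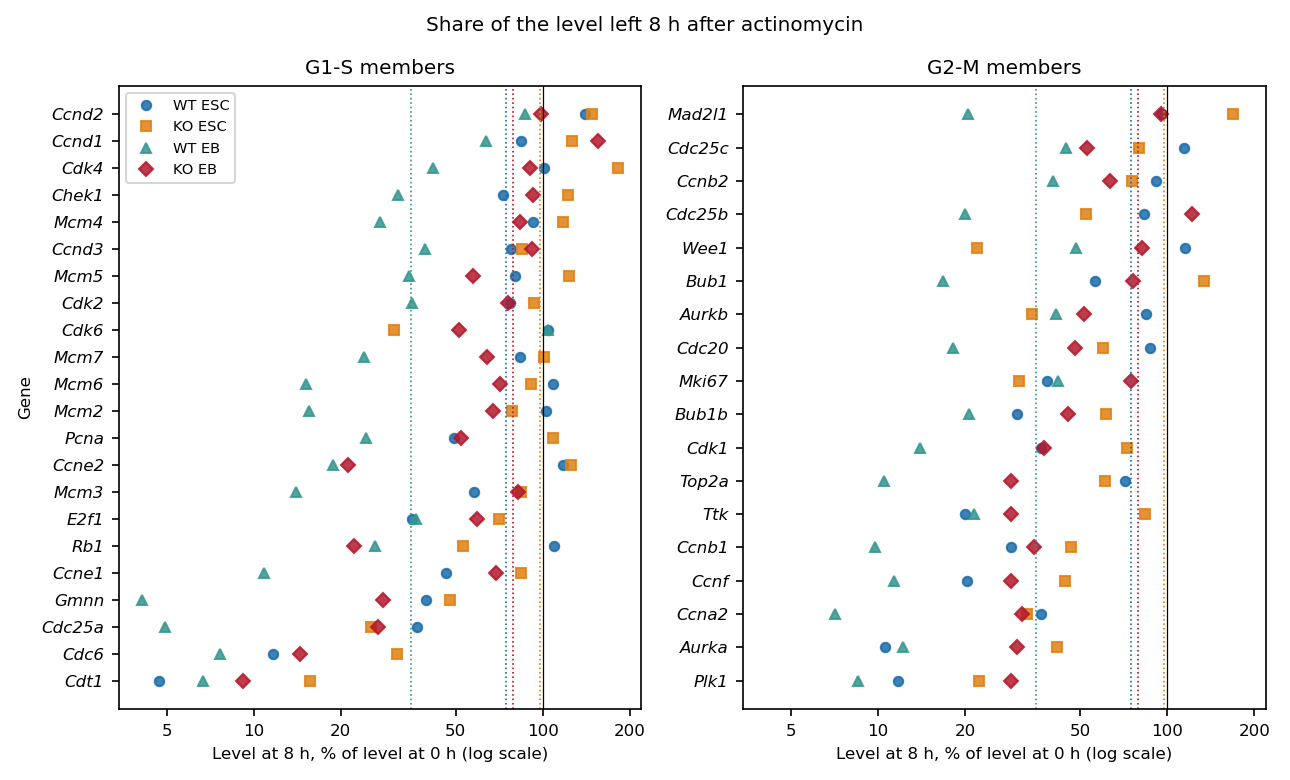
Level at 8 h as a percentage of the level at 0 h (log axis) for each gene, with 1 point per condition; the solid line is 100% and the dotted lines are the medians of entries of at least 20 ppm in the colour of the condition. Genes are ordered by the geometric mean of their 4 shares: Cdt1 and Cdc6 lie at the low end of the G1-S panel, between 4.70% and 31.2%, and Plk1 lies at the low end of the G2-M panel, between 8.48% and 28.7%.

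The genes were ranked by share left in each condition, from 1 for the lowest to 40. Cdt1, Cdc6 and Plk1 were among the 10 lowest of the 40 in all 4 conditions, and Ccnd2 and Cdk4 among the 10 highest in all 4. Ccnd1 was among the 10 highest in 3. Others changed ends: Cdk6 ranked 5 in KO ESCs and 40 in WT EBs, and Wee1 2 and 37. These rest on few reads. At 0 and 8 h, Cdk6 had 15 and 4 reads in KO ESCs and 5 and 4 in WT EBs, and Wee1 18 and 4 and 17 and 7. Ccnd2 had 8 to 22 reads per library, so counting error limits these ranks. The 0 h library is shared by both later shares of a condition, and depth is shared by all genes of a library, so these ranks are given as a description.

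Levels were lower in EBs than in ESCs for most of the genes on the deposited scale, but most of these differences were no longer called once libraries were scaled alike. The level of a gene here is the mean of its log2 levels at 0, 4 and 8 h. In WT, 27 of the 40 genes were called lower in EBs and none higher, where 32.6% of all entries were called, 3.49% higher and 29.1% lower. In KO, 21 were called lower and none higher, where 24.1% of all entries were called, 0.929% higher and 23.2% lower. Of the 6513 entries of at least 20 ppm, 3421 were called lower in WT and 2680 in KO. The median difference of the 40 was -1.17 in WT, against -0.50 over all entries and -0.90 over those of at least 20 ppm. In KO it was -0.82, against -0.61 and -0.79. The 3 other scalings shifted the median of all entries by 0.63 to 0.84 in WT and by 0.37 to 0.65 in KO. Relative to the median of all entries, the median of the 40 genes was -0.67 to -0.62 in WT and -0.21 to -0.18 in KO under the deposited scale and these 3 scalings. A scaling moves all entries of a library by 1 factor, so this gap could hardly change and is no check of the result. Under equal totals, median ratios and ribosomal protein scaling, 4, 8 and 4 genes were called in WT and 1, 0 and 2 in KO. Ccnd3, Ccne1, Mcm3 and Mcm6 were called lower in WT EBs under all of them, and no gene was in KO. Without both EB libraries of 8 h, 14 genes were called in WT and 2 in KO. Leaving out WT EBs at 0 h or at 8 h alone left 15 calls in WT, and leaving out KO EBs at 0 h or at 8 h alone left 0 in KO. Without KO ESCs at 0 h or at 8 h, 5 were left in KO, and without KO ESCs or KO EBs at 4 h, 12. On the deposited scale, the summed pluripotency markers were also lower in each EB library than in each ESC library. Relative to the column total this did not hold throughout. The sum was 21652 of 7076737 in KO EBs at 0 h, a larger part than the 30986 of 11086748 in KO ESCs at 8 h. The part of cell identity in the differences of the 40 genes was not tested.

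At 0 h, before any effect of actinomycin, the same contrast compares single libraries and has no test. In WT, 35 of the 40 genes were lower in EBs, with a median difference of -0.51, where 63.3% of all entries were lower. In KO, 37 were lower, with a median of -0.70, where 74.7% of all entries were lower. At equal column totals, 22 and 24 of the 40 were lower, with medians of -0.11 and -0.16, where 45.2% and 49.7% of all entries were lower, with medians of 0.10 and 0.01. At 0 h, KO minus WT had a median of -0.28 over the 40 genes in ESCs, where all entries had 0.03, and of -0.37 in EBs, where all entries had -0.18. At equal column totals these medians were -0.21 and 0.10 in ESCs, and -0.14 and 0.03 in EBs.

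**Figure D2:**
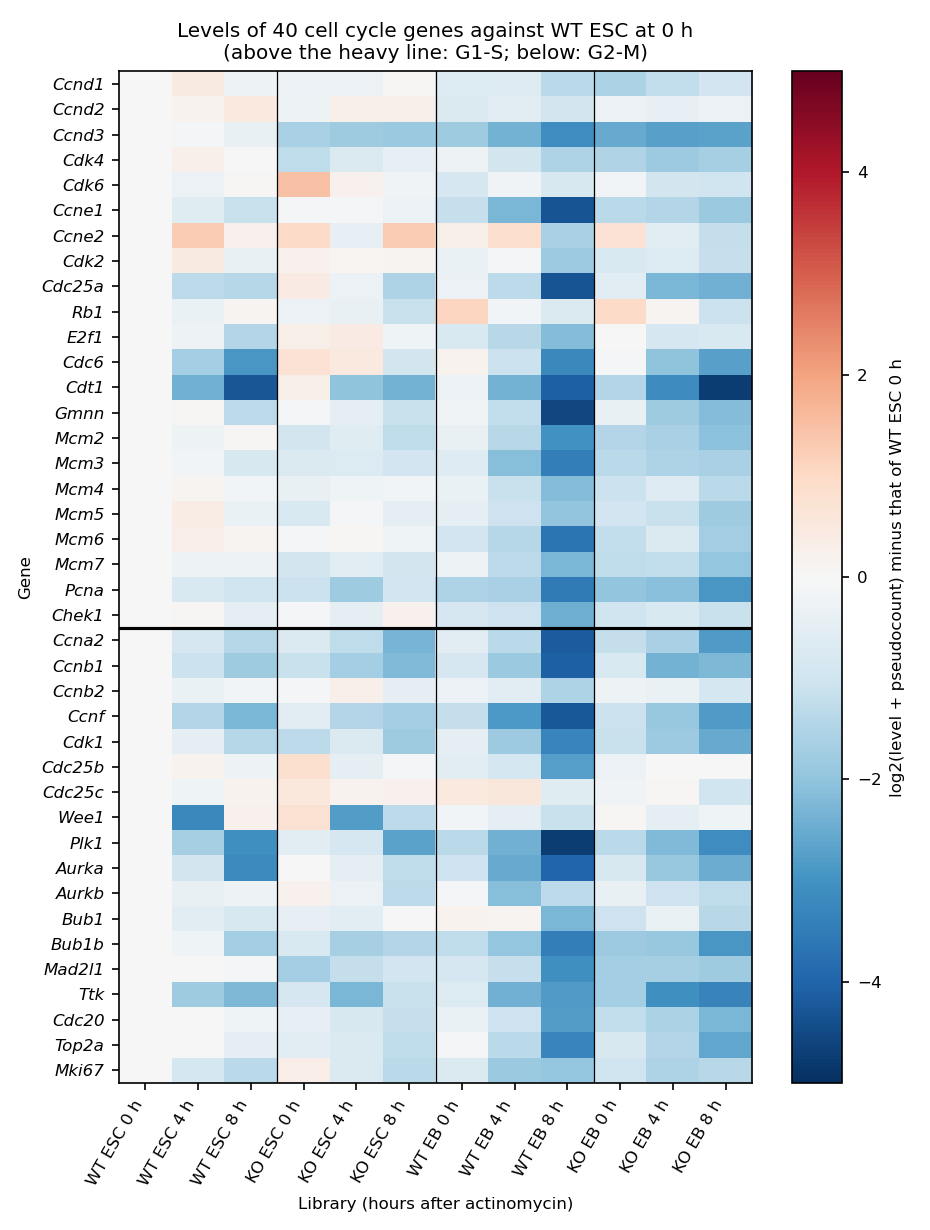
Log2 of the level plus the pseudocount in each of the 12 libraries (columns) minus that of WT ESCs at 0 h, for the 40 genes (rows); blue is lower and red higher, and the first column is 0 by construction. The column of WT EBs at 8 h is the bluest one, and the Ccnd3 row is blue in all KO ESC, WT EB and KO EB libraries.

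Between genotypes, a few of these genes differed in level. In ESCs, 6 of the 40 were called, 1 higher and 5 lower, where 14.1% of all entries were called, 10.9% higher and 3.27% lower. Cdc6, the loader of the MCM helicase, changed by 1.63 ± 0.38. Ccnd3, a D cyclin, changed by -1.61 ± 0.16, the spindle checkpoint gene Mad2l1 by -1.27 ± 0.29, Cdk4 by -0.89 ± 0.19, Mcm2 by -0.85 ± 0.24 and Cdc20, the activator of the anaphase-promoting complex, by -0.71 ± 0.21 (all log2, ± SE). All 6 were called under each of the 3 other scalings. With 1 library left out at a time or another setting of the fit, Ccnd3 and Cdc6 were called in all 24 alternatives run, Cdk4 in 20 of 24, Mcm2 in 18 of 24, Mad2l1 in 18 of 24 and Cdc20 in 12 of 24. The equal totals, median ratio and ribosomal protein scalings called 1 higher and 7 lower, 1 and 9, and 2 and 5. Without KO ESCs at 0 h or at 8 h, 2 of the 40 were called, and without WT ESCs at 0 h or at 8 h, 3.

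In EBs, 4 of the 40 were called, 3 higher and 1 lower, where 9.22% of all entries were called, 7.66% higher and 1.56% lower. Cdc25b, a phosphatase that activates Cdk1, was higher in KO by 1.29 ± 0.34, Ccne1 by 1.03 ± 0.20 and Ccnf, a cyclin of a ubiquitin ligase, by 0.85 ± 0.25, and Cdk4 differed by -0.75 ± 0.19. The share called higher, 7.5% of the 40, is close to that of all entries, while of the 6513 entries of at least 20 ppm, 924 were called higher and 155 lower. The differences of the 4 genes are means over the 3 times. In the single libraries of 0 h the KO minus WT differences were 0.26 for Cdc25b, -0.18 for Ccne1, 0.14 for Ccnf and -1.23 for Cdk4. The other scalings moved the median of all entries by -0.34 to -0.17, and under equal totals and median ratios 1 gene was called higher and 1 lower, under ribosomal protein scaling 1 and 4. Ccne1 and Cdk4 were called under all 3, Ccnf and Cdc25b under none. Without both EB libraries of 8 h, none of the 40 was called, and the same held when WT EBs at 0 h, WT EBs at 8 h, KO EBs at 0 h or KO EBs at 8 h were left out on their own. The summed endoderm markers were above those of KO EBs in all 3 WT EB libraries, and the part of such cells in these differences was not tested.

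**Figure D3:**
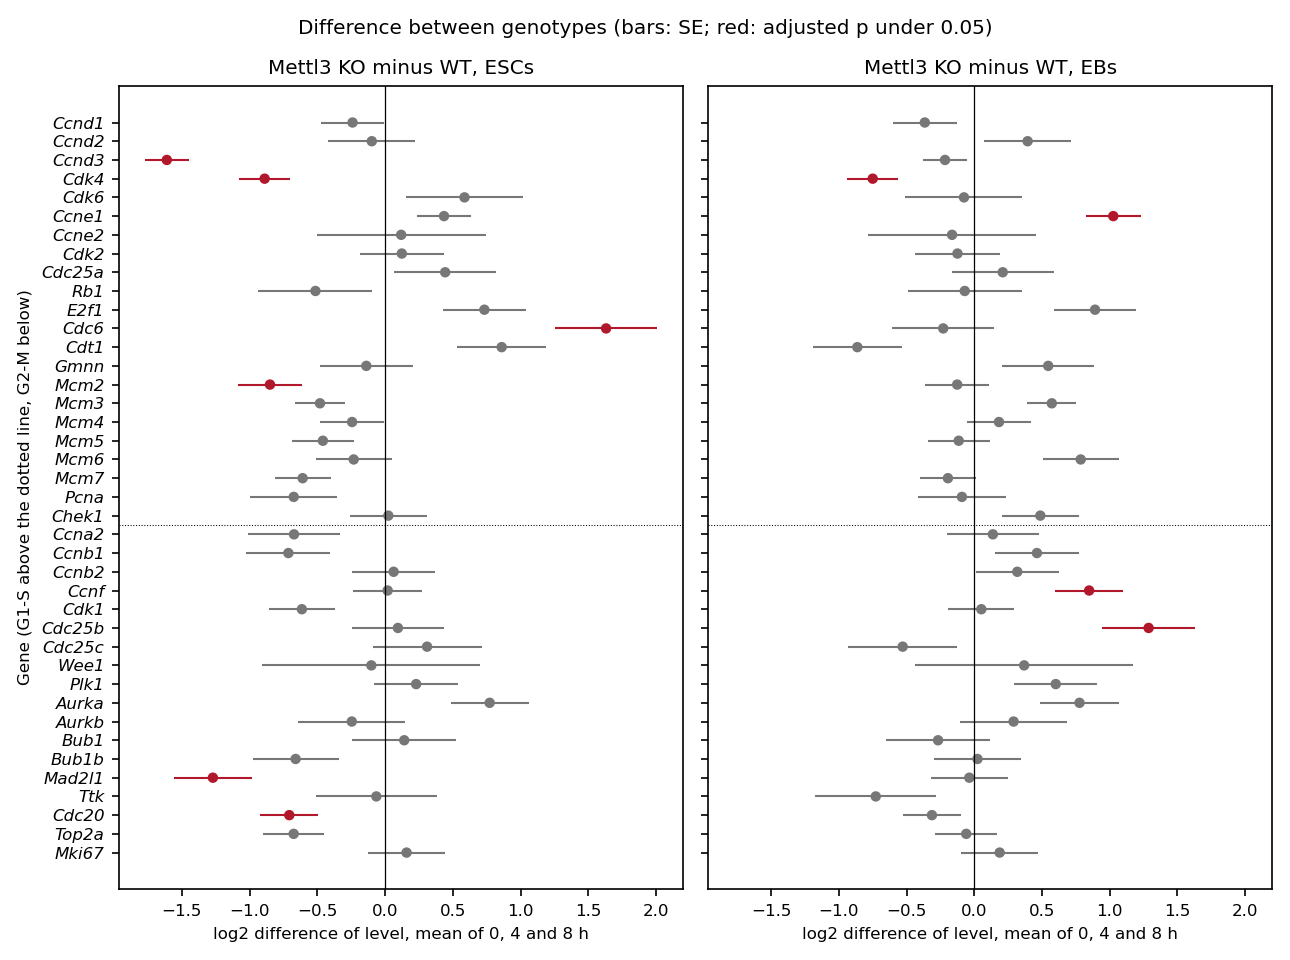
Log2 difference of the level between KO and WT, averaged over 0, 4 and 8 h, in ESCs (left) and EBs (right) for each gene, with the SE as a bar and called genes in red. Ccnd3 at -1.61 and Cdc6 at 1.63 stand at the ends of the ESC panel, and Cdk4 is red in both panels.

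The genotype difference itself differed between EBs and ESCs for 2 of the 40 genes, both more positive in EBs, where 2.86% of all entries were called in either direction and 1.5% were called in that direction. For Ccnd3 the difference of differences was 1.40 ± 0.23 (SE), adjusted p = 0.00305, and for the helicase subunit Mcm3 1.05 ± 0.26 (SE), adjusted p = 0.0396 (limma). Ccnd3 was called under all 3 other scalings and Mcm3 under 1. The scalings by equal totals and ribosomal protein genes, which moved the median of all entries by -0.20 and -0.43, called 1 gene higher and 1 lower, and 1 and 2. Fewer than 2 genes were called without 10 of the 12 libraries in turn, and none without KO EBs at 0 h or at 8 h. The slope after actinomycin differed between KO and WT ESCs in 0 of the 40 genes, where 0.0394% of all entries were called. At an unadjusted p under 0.05 it differed in 1 of the 40 (limma), where 9.98% of all entries passed. In EBs it was less steep in KO for 2 genes, Ccne1 and Mcm3, where 1.19% of all entries were called. At an unadjusted p under 0.05 it was less steep in 21 of the 40, where 16.9% of all entries passed in either direction. No gene was called for this under any of the 3 other scalings, and the ribosomal protein scaling took the median of the 40 from 0.16 to -0.000759 log2 units per hour. None was called either without WT EBs at 8 h, any KO EB library or any KO ESC library. Between EBs and ESCs, the slope was called in 0 of the 40, where 0.00787% of all entries were called. At an unadjusted p under 0.05, 14 of the 40 were steeper in EBs (limma), where 15.2% of all entries passed in either direction.

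D cyclins and their kinases open the cycle in response to growth signals, and this group held Ccnd2 and Cdk4, whose shares left ranked among the highest in every condition. Ccnd3 (chr17:47505051-47599689 on GRCm38) had levels of 13329, 12698 and 10339 at 0, 4 and 8 h in WT ESCs, 4309, 3887 and 3641 in KO ESCs, 3909, 2562 and 1528 in WT EBs and 2288, 2036 and 2096 in KO EBs. Every KO ESC, WT EB and KO EB library lay below every WT ESC library. The KO minus WT difference was -1.61 ± 0.16 (SE), adjusted p = 1.97e-05 in ESCs and -0.22 ± 0.16 in EBs (adjusted p = 0.54), and the EB minus ESC difference was -2.27 ± 0.16 (SE), adjusted p = 5.36e-07 in WT (limma). Ccnd1, which integrates mitogen and adhesion signals, had levels of 2128, 2873 and 1789 in WT ESCs, 1750.1, 1716 and 2204 in KO ESCs, 1305, 1369 and 828 in WT EBs and 704, 896 and 1093 in KO EBs. The highest EB value was below the lowest ESC value, and in KO the 8 h library was the highest of each cell type. Its EB minus ESC difference was -0.96 ± 0.23 in WT and -1.08 ± 0.23 in KO, called in both on the deposited scale and under none of the 3 other scalings. Its shares left at 8 h were 84.1%, 126%, 63.5% and 155% in WT ESCs, KO ESCs, WT EBs and KO EBs.

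Ccnd2, the third D cyclin, was low, between 147 and 401, and kept 140.0%, 147%, 86.8% and 98.8% of its level in the same order. Cdk4, their catalytic partner, had levels of 4267, 5049 and 4298 in WT ESCs, 1769, 2553 and 3205 in KO ESCs, 3529, 2259.9 and 1474 in WT EBs and 1499, 1214 and 1349 in KO EBs. In ESCs all KO libraries lay below all WT libraries, and in EBs they did except that WT EBs at 8 h fell into the KO range. Cdk4 differed by -0.89 ± 0.19 (SE), adjusted p = 0.00575 in ESCs and by -0.75 ± 0.19 (SE), adjusted p = 0.0197 in EBs (limma). Cdk6, the other D cyclin kinase, ranged from 60.1 to 375 and was called in none of the 9 comparisons.

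E cyclins with Cdk2 complete the passage into S phase. Ccne1 had levels of 4888, 3195 and 2266 in WT ESCs, 4735, 4665 and 3968 in KO ESCs, 2191, 1006 and 238 in WT EBs and 1936, 1779.9 and 1329 in KO EBs. At 0 h the genotypes lay close together in each cell type, and at 8 h WT was at 46.4% of its 0 h level in ESCs and 10.9% in EBs, whereas KO kept 83.8% and 68.7%. The difference of slopes in EBs was 0.33 ± 0.06 (SE), adjusted p = 0.0347, and in ESCs 0.11 ± 0.06 (SE), adjusted p = 0.62 (limma, log2 units per hour). The EB call was lost under each of the 3 other scalings, with values between 0.168 and 0.230, and the difference was called in 7 of 23 alternatives. Its mean slope over the 4 conditions, -0.16 ± 0.02 (SE), adjusted p = 0.000215, was called in 24 of 24 alternatives.

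Cdc25a, the phosphatase that activates Cdk2, had levels of 866, 346 and 319 in WT ESCs, 1155, 715 and 295 in KO ESCs, 714, 344 and 35.2 in WT EBs and 580.1, 169.9 and 156 in KO EBs. In every condition the levels went down from 0 to 4 to 8 h, to 36.8%, 25.5%, 4.92% and 26.9% of the 0 h level, and the mean slope was -0.29 ± 0.04 (SE), adjusted p = 0.000233 (limma). WT EBs at 8 h were at 35.2, below the 95th percentile of the silent genes there (71.8). Cdk2 itself kept 77.1%, 92.8%, 35.3% and 75.9% and was called only for a lower level in KO EBs than in KO ESCs. E2f1, the activating transcription factor, fell with a mean slope of -0.13 ± 0.03, and Rb1, its inhibitor, with -0.14 ± 0.05, although Rb1 was between 51.0 and 262. Ccne2, at 16.2 to 175, was called in none of the 9 comparisons.

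The licensing genes split into fast and slow members. Cdt1, which brings the helicase to origins, had levels of 1837, 339 and 86.4 in WT ESCs, 2231, 444 and 351 in KO ESCs, 1487, 354 and 99.2 in WT EBs and 663, 199 and 61.1 in KO EBs. In every condition the 0 h library was the highest by far and the 8 h library the lowest. The share left at 8 h was 4.70% (95% interval 1.08 to 16.2%) in WT ESCs, 15.7% (95% interval 7.99 to 28.0%) in KO ESCs, 6.67% (95% interval 2.55 to 16%) in WT EBs and 9.21% (95% interval 2.84 to 22.3%) in KO EBs. The intervals are exact binomial ones on inferred reads and cover counting error only. Its mean slope of -0.44 ± 0.04 log2 units per hour was at percentile 0.0630 of all 12704 entries, counted from the steepest fall, with an adjusted p of 8.44e-06 (limma).

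Cdc6, the partner of Cdt1 in loading the helicase, had levels of 405, 119.8 and 47.1 in WT ESCs, 679.9, 569 and 212 in KO ESCs, 462, 186 and 35.2 in WT EBs and 374, 95.1 and 54.1 in KO EBs. KO ESCs were above WT ESCs at each time, and by a larger ratio at 4 h than at 0 h. The level difference was 1.63 ± 0.38 (SE), adjusted p = 0.00975 in ESCs and -0.23 ± 0.38 (SE), adjusted p = 0.828 in EBs (limma), and at 0 h alone 0.74 in ESCs. Shares left at 8 h were 11.6%, 31.2%, 7.62% and 14.5%, and in WT ESCs at 8 h 1 read was worth 32.7. Its mean slope was -0.33 ± 0.04, called in 24 of 24 alternatives.

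Gmnn, the inhibitor of Cdt1, had levels of 1523, 1604 and 603 in WT ESCs, 1443, 1103 and 692 in KO ESCs, 1364, 639.8 and 56.3 in WT EBs and 1171, 442 and 329 in KO EBs. WT EBs at 8 h stood far below all other libraries, and there 4.13% was left against 39.6%, 47.9% and 28.1% in WT ESCs, KO ESCs and KO EBs. The mean slope was -0.27 ± 0.04 (SE), adjusted p = 0.000208 (limma). The 6 MCM genes, subunits of the helicase, lost less. Over Mcm2, Mcm3, Mcm4, Mcm5, Mcm6 and Mcm7, the shares left at 8 h were 57.8 to 108% in WT ESCs, 78.2 to 123% in KO ESCs and 14.0 to 34.6% in WT EBs. In KO EBs they were 57.4 to 83.6%. The 6 genes had their lowest shares in WT EBs. The median over entries of at least 20 ppm was lowest there too, at 35.0%, beside 74.6%, 97.5% and 78.9% in WT ESCs, KO ESCs and KO EBs. In WT EBs, 73.9% of these entries were under 50%. How many of them were lowest in WT EBs was not counted.

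Mcm3 had levels of 6218, 5712 and 3594 in WT ESCs, 3794, 3864 and 3197 in KO ESCs, 4018, 1413 and 564 in WT EBs and 2457, 2148 and 2019.7 in KO EBs. WT EBs had the highest EB value at 0 h and the lowest at 8 h, while KO EBs kept 82.2%. Its level difference was -1.76 ± 0.18 (SE), adjusted p = 8.57e-06 in WT EBs against WT ESCs and its slope differed by 0.32 ± 0.06 (SE), adjusted p = 0.0329 between KO and WT EBs (limma). Mcm6 had levels of 3014, 3824 and 3269 in WT ESCs, 2856, 3118 and 2608 in KO ESCs, 1534, 1103 and 232 in WT EBs and 1272, 1801 and 904 in KO EBs. All EB values were below all ESC values, with WT EBs at 8 h the lowest. The WT EB minus ESC difference was -2.18 ± 0.28 (SE), adjusted p = 4.59e-05, called in 24 of 24 alternatives.

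Mcm2 had levels of 2522, 2088 and 2593 in WT ESCs, 1331, 1668 and 1041 in KO ESCs, 1959, 967 and 305 in WT EBs and 906, 811 and 609.8 in KO EBs. The KO ESC values lay below all WT ESC values, with a difference of -0.85 ± 0.24 (SE), adjusted p = 0.0269 (limma). Mcm4, Mcm5 and Mcm7 were each called lower in EBs in both genotypes, by -1.12 to -1.22 in WT and -0.71 to -0.85 in KO, and none of these calls held under the 3 other scalings. Pcna, the sliding clamp of the replication fork, differed between EBs and ESCs by -1.64 ± 0.32 in WT and -1.06 ± 0.32 in KO. Chek1, the kinase that answers stalled forks, differed by -1.30 ± 0.28 and -0.84 ± 0.28. Both were called on the deposited scale and under none of the other scalings.

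**Figure D4:**
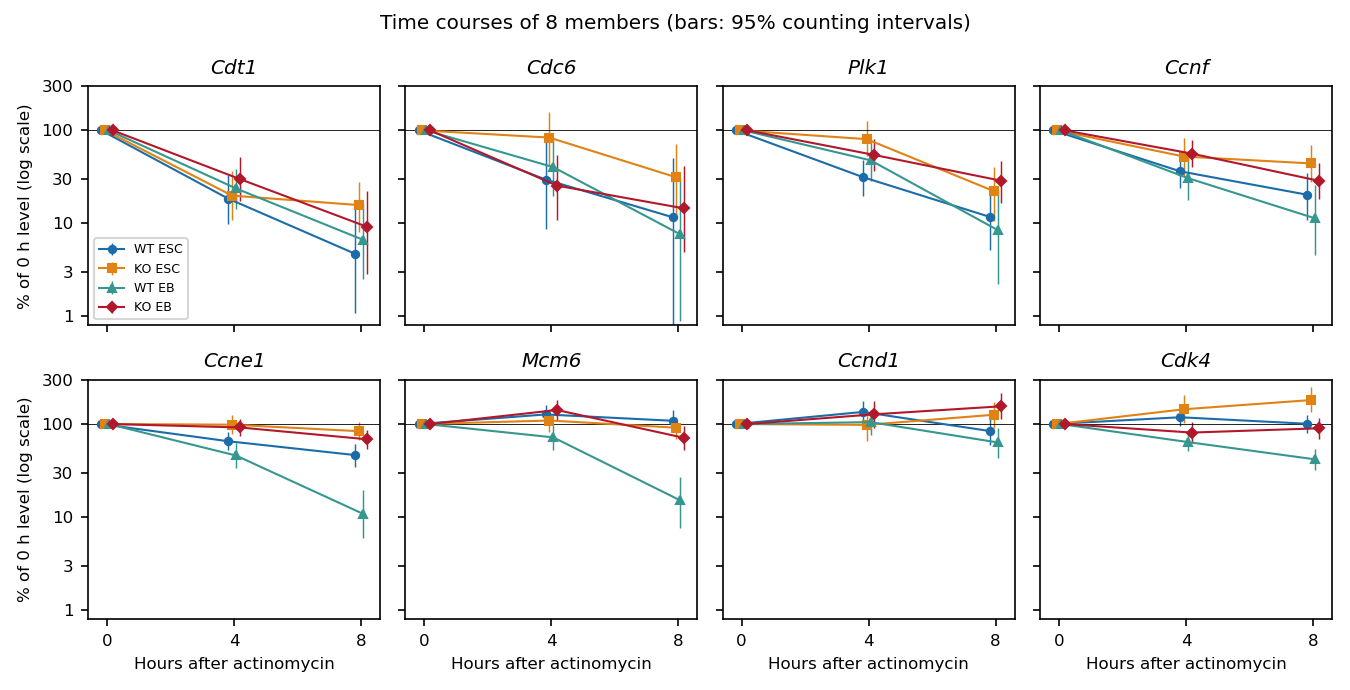
Percentage of the 0 h level at 4 and 8 h (log axis) for 8 genes, with 1 line per condition and bars for the 95% counting interval; the lower bars of Cdc6 at 8 h run off the axis in WT ESCs. Cdt1, Cdc6, Plk1, Ccnf and Ccne1 stood below their 0 h level at 8 h in all 4 conditions. All plotted genes but Cdt1 had their lowest 8 h share in WT EBs, and Ccnd1 and Cdk4 stayed at or above 41.8% of the 0 h level.

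A and B cyclins with Cdk1 form the engine of mitosis, and 4 of these 5 genes had a called fall after actinomycin. Ccna2, the cyclin of S phase and early mitosis, had levels of 1093, 602 and 399 in WT ESCs, 654, 452 and 214 in KO ESCs, 742, 428 and 52.8 in WT EBs and 469.5, 350.4 and 147 in KO EBs. Ccnb1, the main mitotic cyclin, had levels of 1799.9, 859 and 519 in WT ESCs, 837, 550.4 and 388 in KO ESCs, 1013, 496 and 98.5 in WT EBs and 1071, 344 and 371 in KO EBs. In both genes the 0 h library was the highest of each condition and the 8 h library the lowest, except for Ccnb1 in KO EBs, where the 4 h and 8 h values were close. Mean slopes were -0.26 ± 0.04 for Ccna2 (adjusted p = 0.000259) and -0.24 ± 0.03 for Ccnb1 (adjusted p = 0.000235, limma).

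Ccnf had levels of 2419, 877 and 491 in WT ESCs, 1677, 877 and 739.8 in KO ESCs, 1046, 321 and 119 in WT EBs and 1150.0, 648 and 330.3 in KO EBs. Its values went down in order from 0 to 8 h in each condition, to 20.3%, 44.1%, 11.3% and 28.7%, with a mean slope of -0.26 ± 0.03 (SE), adjusted p = 3.11e-05 (limma). The higher level in KO EBs, 0.85 ± 0.25 (SE), adjusted p = 0.048, was called in 4 of 24 alternatives and was lost with any 1 library left out. Cdk1 had levels of 4541, 3241 and 1663 in WT ESCs, 1832, 2785 and 1329.9 in KO ESCs, 3270.0, 1279 and 457 in WT EBs and 2118, 1281 and 791 in KO EBs. KO ESCs at 0 h lay below WT ESCs at 0 and 4 h, and the highest KO ESC value was the one at 4 h. The mean slope was -0.19 ± 0.03 (SE), adjusted p = 0.000207 (limma). Ccnb2, the other B cyclin, kept 91.6%, 75.7%, 40.3% and 63.3% of its level and was called in none of the 9 comparisons.

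Of the regulators of Cdk1, Cdc25b was higher in KO EBs than in WT EBs, with WT EBs at 369.5, 299 and 73.9 and KO EBs at 445, 552 and 541 at 0, 4 and 8 h. The lowest KO EB value was above all 3 WT EB values, and the gap was widest at 8 h. Cdc25c, its relative, ranged from 65.8 to 211 and was called nowhere. Wee1, the kinase that inhibits Cdk1, was also called nowhere, and it was at 20.8 in WT ESCs at 4 h, about 1 read, between 268 at 0 h and 309 at 8 h.

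Among the mitotic kinases, Plk1, which drives entry into mitosis and spindle assembly, had levels of 2142, 673 and 251 in WT ESCs, 1489, 1198 and 331 in KO ESCs, 842, 401 and 71.4 in WT EBs and 837, 455 and 240.2 in KO EBs. The share left at 8 h was 11.7% (95% interval 5.14 to 25.2%) in WT ESCs, 22.2% (95% interval 10.6 to 40.8%) in KO ESCs, 8.48% (95% interval 2.21 to 22.7%) in WT EBs and 28.7% (95% interval 16.5 to 46.9%) in KO EBs. Each of these shares was among the 10 lowest of the 40 genes, with a mean slope of -0.32 ± 0.03 (SE), adjusted p = 2.63e-05 (limma). Aurka, which matures the spindle poles, had levels of 1487, 792 and 157 in WT ESCs, 1459, 1084 and 607 in KO ESCs, 717, 255 and 87.2 in WT EBs and 851, 395 and 258 in KO EBs. It went down at each step in all 4 conditions, with a mean slope of -0.28 ± 0.03 (SE), adjusted p = 4.53e-05 (limma). Aurkb, the kinase of the chromosomal passenger complex, kept 84.1%, 33.9%, 41.2% and 51.6% and was called in none of the 9 comparisons.

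The spindle checkpoint genes hold anaphase until all chromosomes are attached. Bub1b fell after actinomycin with a mean slope of -0.18 ± 0.03, Ttk with -0.20 ± 0.05 and Cdc20 with -0.14 ± 0.02, while Bub1 (-0.10 ± 0.04) and Mad2l1 (-0.05 ± 0.03) were not called. Mad2l1, which sequesters Cdc20, stood at 1299, 1334 and 1243 in WT ESCs and 397, 558 and 671 in KO ESCs at 0, 4 and 8 h. Each KO value was below each WT value, and in EBs the difference was -0.04 ± 0.29. Cdc20 stood at 3496, 3474 and 3037 in WT ESCs and 2652, 2006 and 1584 in KO ESCs, again without overlap. The call on Cdc20 was lost in 12 of 24 alternatives.

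The 2 genes of chromosome structure both had a called fall after actinomycin. Top2a, the topoisomerase that untangles sister chromatids, had levels of 2510.3, 2538 and 1796 in WT ESCs, 1729, 1538 and 1049 in KO ESCs, 2384, 986 and 250.1 in WT EBs and 1418, 907 and 408 in KO EBs. The 8 h library was the lowest of each condition, and the mean slope was -0.19 ± 0.02 (SE), adjusted p = 0.000111 (limma). Mki67, whose protein coats mitotic chromosomes and is used as a proliferation marker, had levels of 1040.5, 561 and 399.7 in WT ESCs, 1304, 622 and 401 in KO ESCs, 635, 284 and 266 in WT EBs and 524, 349 and 392 in KO EBs. The 0 h library was the highest in each condition, and the mean slope was -0.15 ± 0.03 (SE), adjusted p = 0.00362 (limma). The WT and KO ranges of Mki67 overlapped in both cell types, with differences of 0.16 ± 0.29 in ESCs and 0.19 ± 0.29 in EBs, neither called.

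Within a library, the ratio of the summed G2-M level to the summed G1-S level does not depend on how the library was scaled. At 0, 4 and 8 h this ratio was 0.469, 0.341 and 0.307 in WT ESCs, 0.498, 0.389 and 0.305 in KO ESCs, 0.525, 0.460 and 0.344 in WT EBs and 0.600, 0.462 and 0.386 in KO EBs. It was lower at each later time in all 4 conditions, and at 0 h it was higher in the EB than in the ESC libraries and higher in KO than in WT of each cell type. Ccnd3 holds a large part of the G1-S sum. Without it, the ratio at 0 and 8 h was 0.614 and 0.411 in WT ESCs, 0.564 and 0.343 in KO ESCs, 0.595 and 0.418 in WT EBs and 0.672 and 0.450 in KO EBs, so at 0 h WT ESCs no longer lay below KO ESCs or below WT EBs. The ratio of the medians, which weights genes equally, was also lower at 8 h than at 0 h in WT ESCs (0.674 to 0.422), KO ESCs (0.623 to 0.407) and KO EBs (0.669 to 0.546), but not in WT EBs (0.507 to 0.547), which by this measure lay below both ESC libraries at 0 h.

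**Figure D5:**
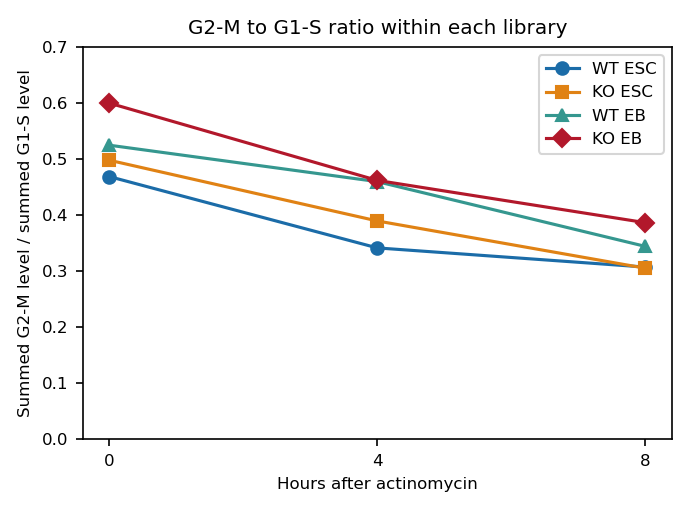
Summed level of the 18 G2-M genes over that of the 22 G1-S genes in each library against hours after actinomycin, with 1 point per library and 1 line per condition. All 4 lines go down from 0 to 8 h, from between 0.469 and 0.600 to between 0.305 and 0.386.

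Other cell cycle genes were counted from lists by function. Of the 32 origin recognition and replisome genes, 23 were called lower in EBs in WT and 14 in KO, with the smallest adjusted p in WT for the DNA ligase Lig1 (-1.85 ± 0.20), the clamp loader subunit Rfc5 (-1.73 ± 0.20) and the helicase partner Gins1 (-1.55 ± 0.20). All 7 nucleotide supply genes were called lower in both genotypes, among them the ribonucleotide reductase subunit Rrm2 (-1.89 ± 0.23 in WT and -1.30 ± 0.23 in KO). The counts for WT and KO were 14 and 8 of 29 kinetochore and spindle genes, 12 and 9 of 17 genes of the anaphase-promoting complex and chromatid separation, 9 and 5 of 13 cohesin and condensin genes, and 3 and 7 of 17 E2F, pocket protein and DREAM genes. No gene of these 6 lists was called higher in EBs. Of the 6 CDK inhibitors tested, in contrast, Cdkn1a (1.64 ± 0.47) and Cdkn2a (1.03 ± 0.26) were called higher and Cdkn1c (-2.13 ± 0.51) lower in WT EBs, and none was called in KO EBs. At 0 h, WT ESCs and WT EBs were at 377 and 504 for Cdkn1a, 465 and 1387 for Cdkn2a and 312 and 67.4 for Cdkn1c. Cdkn1a was at 24.7 and 26.2 in WT ESCs at 4 and 8 h, where 1 read was worth 24.7 and 32.7. The background of entries called lower is 29.1% in WT and 23.2% in KO. Of the 6513 entries of at least 20 ppm, 3421 were called lower in WT and 2680 in KO. The calls on these lists share the scaling limit given above.

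After actinomycin, a downward mean slope was called in 18 of 29 kinetochore and spindle genes, 12 of 17 of the anaphase-promoting complex list, 13 of 32 replisome genes, 8 of 13 cohesin and condensin genes, 5 of 17 E2F and DREAM genes, and 2 of 7 nucleotide supply genes, where 21.4% of all entries were called. Of the 6513 entries of at least 20 ppm, 2271 were called downward. The medians were -0.16 log2 units per hour for the kinetochore and spindle list and -0.08 for the replisome list, next to -0.16 and -0.10 for the G2-M and G1-S genes. Incenp, a scaffold of the Aurkb complex, had a slope of -0.28 ± 0.03 and the kinetochore gene Ndc80 one of -0.28 ± 0.04.

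Between genotypes, some genes of these lists were called as well. In KO ESCs, 2 of the 6 CDK inhibitors tested were called higher and 1 lower. Cdkn1c (p57) differed by -2.70 ± 0.51, Cdkn2d (p19) by 1.79 ± 0.39 and Cdkn1a (p21) by 1.52 ± 0.47. These are means over the 3 times. At 0 h, KO and WT ESCs were at 55.3 and 312 for Cdkn1c, 271 and 372 for Cdkn2d and 709 and 377 for Cdkn1a. Cdkn2d was thus lower in KO at 0 h and higher only at 4 and 8 h. In WT ESCs at 8 h it was at 22.2 and Cdkn1a at 26.2, where 1 read was worth 32.7. In KO EBs Cdkn2d alone was called, at 1.62 ± 0.39, with KO and WT EBs at 353 and 309 at 0 h. Foxm1, the activator of G2-M genes, was called higher in KO in both cell types, by 1.21 ± 0.29 in ESCs, while E2f2, an E2F activator, was called lower in KO ESCs (-1.51 ± 0.43). The E2F and DREAM list had 1 higher and 1 lower of 17 called in ESCs and 2 higher and 0 lower in EBs. Also called higher in both cell types were Fen1, the flap endonuclease (1.01 ± 0.23 and 1.22 ± 0.23), Tk1, thymidine kinase (1.37 ± 0.30 and 1.35 ± 0.30), and Cdc26, a subunit of the anaphase-promoting complex (1.29 ± 0.27 and 1.76 ± 0.27). In KO ESCs, 2 higher and 1 lower of the 32 replisome genes were called, 1 higher and 1 lower of the 29 kinetochore and spindle genes, and 3 higher and 2 lower of the 17 of the anaphase-promoting complex list, where 10.9% and 3.27% of all entries were. In KO EBs the counts were 5 higher and 0 lower, 3 higher and 0 lower and 1 higher and 0 lower, where 7.66% and 1.56% were. Among the 6513 entries of at least 20 ppm, 924 were called higher and 155 lower in KO EBs.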

How the data were processed

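The authors deposited 1 table of normalised levels per RefSeq transcript for all 12 libraries, a signal never below 0. CASAVA 1.8.2, Bowtie2 2.1.0, Bowtie and build mm10 are named in the submitters' processing notes. The counting and the scaling are not given in the sources used here. Per the labels' protocols, RNA was fragmented and its poly(A) ends were selected with strand kept, so a level reads transcript ends and not length. Groups came from the sample titles, which name no batch. Of 19746 entries, 19535 were matched to symbols by RefSeq ID on GRCm38.p6 and 98 through GENCODE, 113 kept their ID, and 38 identical duplicates were dropped. Reads behind a level were inferred from the steps between low values: at least 99.8% of levels under 100 lie within 0.1 of a step of a multiple of 1/50 of a read. Because these are fractions of a read, no count test was run.

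Log2(level + 8.58), the pseudocount being 1 ppm of the mean column total, was fitted with limma 3.58.1 (R 4.3.3) over the 12704 entries with a mean level of at least 42.9, with a line over hours per condition (8 coefficients, 4 residual degrees of freedom, trended prior). Fold changes on this scale understate those of low genes. Adjusted p-values are Benjamini-Hochberg over all entries, and 9 comparisons were made. The fit was tested on simulated data. Comparisons of EBs with ESCs and of KO with WT share libraries. Tables and figures used Python 3.11.15, pandas 2.3.3, scipy 1.17.1 and matplotlib 3.10.9. The members and lists were chosen with earlier results of these data known. Levels in all libraries are printed for the 16 genes with the smallest adjusted p in any comparison and for Ccnd1, Ccne1, Mcm6, Ccnb1, Cdk1 and Mki67, of which only Ccnd1 and Mki67 were not among the 16. Those of Cdk4 were added after its values were seen. Up to 4 called genes are named per wider list. Alternatives were other pseudocounts, filters and scalings, no variance trend, a robust prior, additive time terms, subtraction of the silent-gene background, each library left out, and both EB libraries of 8 h left out.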

Additional observations from a re-analysis of the deposited data

Results flagged for a closer look

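For 2 of the 40 genes, the KO minus WT difference of the level was called different between EBs and ESCs by the interaction term of the limma fit. The difference of differences was 1.40 for Ccnd3 (SE 0.23, adjusted p = 0.00305), from -1.61 in ESCs to -0.22 in EBs. KO was below WT at all 3 times in ESCs and at 0 and 4 h in EBs. For Mcm3 it was 1.05 (SE 0.26, adjusted p = 0.0396), from -0.48 in ESCs, where KO was below WT at all 3 times, to 0.57 in EBs, where KO was below WT at 0 h and above it at 4 and 8 h. In the single libraries of 0 h, the KO minus WT difference of Mcm3 was -0.71 in ESCs and -0.71 in EBs, and that of Ccnd3 -1.63 and -0.77. The call on Mcm3 was kept in 7 of 24 alternatives and that on Ccnd3 in 19 of 24.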

How the results depend on the processing

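The numbers of the 40 genes called are given in the order KO against WT in ESCs, KO against WT in EBs, EBs against ESCs in WT, EBs against ESCs in KO, the interaction, the mean slope and the slope of KO against WT in EBs. As reported they were 6, 4, 27, 21, 2, 25 and 2. They were 8, 2, 4, 1, 2, 15 and 0 at equal column totals, 10, 2, 8, 0, 2, 14 and 0 with median ratios, and 7, 5, 4, 2, 3, 21 and 0 with ribosomal protein scaling. Additive time terms gave 2, 0, 23, 2, 0 and 18 for the first 6, and no variance trend gave 2, 0, 24, 0, 0, 19 and 0. Without both EB libraries of 8 h, they were 6, 0, 14, 2, 0, 13 and 0. A filter of 20 ppm gave 7 for KO against WT in EBs, 5 for its slope and 7 for the slope of EBs against ESCs, where 0 are reported, and no filter gave 1 for the interaction and 0 for the slope in EBs. With 1 library left out at a time, the ranges were 2 to 7, 0 to 4, 15 to 27, 0 to 22, 0 to 3, 16 to 26 and 0 to 2, and 0 to 3 for the slope of EBs against ESCs. The counts under other settings, here and above, are of the 40 genes alone. The share of all entries called under those settings is not given. A general change of calls can therefore not be told from one particular to these genes. The G2-M minus G1-S difference of medians ranged from -0.22 to 0.48 for KO against WT in ESCs and from -0.114 to -0.027 for the mean slope, and the latter, -0.06 as reported, was -0.10 without both EB libraries of 8 h. Fitted values changed sign for E2f1 between WT EBs and ESCs at equal totals (0.000864) and for the mean slope of Mcm6 without both EB libraries of 8 h (0.00124). The cause of these changes was not tested, beyond the fewer libraries or entries that some settings leave. No paired analysis was possible because the labels carry no replicate numbers and each group has 1 library. Depth limits WT EBs at 8 h most, where 8 of the 40 genes were at the level of silent genes.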

Other observations

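The 3′ UTRs of the genes were compared after their slopes had been seen, so this is a description with no test. The 10 genes with the steepest mean slope had a median 3′ UTR of 644 bases in GENCODE M21, and the 10 with the least steep slope one of 1081.5 bases, next to 734 for all 40 and 992 for the 12302 entries with a 3′ UTR. The pentamer ATTTA, the core of AU-rich elements that many short-lived transcripts carry, was in 7 of the 10 steepest and 8 of the 10 least steep, where 66.9% of all entries hold it. GGACT, a common context of N6-methyladenosine, was in 6 of each, where 7379 of the 12302 entries hold it. Cdt1, the gene with the steepest mean slope, had a 3′ UTR of 474 bases with 1 ATTTA and 1 GGACT.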
